A study of Mus musculus with 4 samples.

Results

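Fc gamma receptors bind the constant part of IgG and carry antibody-coated targets to the cell that bears the receptor. The 6 genes described here are Fcgr1, Fcgr3 and Fcgr4, which encode activating receptors, Fcgr2b, which encodes the inhibitory receptor, Fcer1g, which encodes the signalling chain that the activating receptors share, and Fcgrt, which encodes the heavy chain of the neonatal Fc receptor. They were taken as a fixed list of genes by name, 6 of the 32285 genes in the table of raw counts, and all 6 were detected. They were measured in viable CD45+ cells sorted from orthotopic EO771 mammary tumors of 1.5 cm3. EO771 is a mouse mammary carcinoma line. Of the 4 female mice, 2 were Csf1r fl/fl, with floxed Csf1r alleles and no Cre, and 2 were Lyve1Cre Csf1r fl/fl, in which Cre under the control of Lyve1 deletes Csf1r in any cell that expresses or has expressed Lyve1, lymphatic endothelium included. Both genotypes carried the floxed alleles and the same tumor line. Each of 2 Chromium runs held 1 tumor of each genotype, and hashtag antibodies marked the tumors. The genotypes are written Cre- and Cre+ from here on.

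The activating receptors pass their signal through an ITAM, a short tyrosine motif, on the chain encoded by Fcer1g, which recruits Src family kinases and Syk. The inhibitory receptor carries an ITIM in its own tail and recruits the phosphatase encoded by Inpp5d. Myeloid cells usually bear both kinds at once, NK cells are known for the receptor encoded by Fcgr3, and B cells for the one encoded by Fcgr2b. The neonatal receptor works differently. It binds IgG inside endosomes, returns it to the surface and pairs with beta 2 microglobulin, encoded by B2m.

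In the mm10 annotation, Fcgr2b (chr1:170958617-170976547, minus strand), Fcgr4 (chr1:171018920-171029761, plus strand), Fcgr3 (chr1:171051174-171064935, minus strand) and Fcer1g (chr1:171229572-171234365, minus strand) lie within 275749 bases of each other. Fcgr1 lies at chr3:96282909-96293969 and Fcgrt at chr7:45092990-45103851, both on the minus strand. Antisense genes overlap Fcgr2b (Gm38204) and Fcgrt (Gm45669). The 4 receptor genes for surface IgG differed in which myeloid cells held them, so the 250 bases before their RefSeq start sites on GRCm38.p6 are shown. Each is on the strand of its gene. The RefSeq starts used for Fcgr2b and Fcgr3 lie inside the gene spans given above, so their windows are not upstream of those spans. Capitals mark the core letters of a PU.1 site, GAGGAA, which reads TTCCTC on the other strand. PU.1 is a transcription factor of myeloid cells.

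Fcgr1, chr3:96293970-96294219: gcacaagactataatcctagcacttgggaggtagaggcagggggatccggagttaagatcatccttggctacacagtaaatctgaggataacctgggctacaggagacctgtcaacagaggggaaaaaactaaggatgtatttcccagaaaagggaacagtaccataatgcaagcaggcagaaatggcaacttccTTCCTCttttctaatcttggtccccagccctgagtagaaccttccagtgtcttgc

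Fcgr2b, chr1:170976072-170976321: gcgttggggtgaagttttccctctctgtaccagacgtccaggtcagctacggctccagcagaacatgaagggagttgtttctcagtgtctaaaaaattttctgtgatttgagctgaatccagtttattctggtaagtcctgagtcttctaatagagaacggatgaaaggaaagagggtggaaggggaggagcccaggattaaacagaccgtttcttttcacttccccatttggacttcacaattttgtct

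Fcgr3, chr1:171059404-171059653: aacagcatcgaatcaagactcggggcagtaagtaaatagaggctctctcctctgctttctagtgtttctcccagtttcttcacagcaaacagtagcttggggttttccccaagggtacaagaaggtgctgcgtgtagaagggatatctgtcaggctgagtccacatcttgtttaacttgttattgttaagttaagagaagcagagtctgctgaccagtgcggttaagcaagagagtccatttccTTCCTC

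Fcgr4, chr1:171018676-171018925: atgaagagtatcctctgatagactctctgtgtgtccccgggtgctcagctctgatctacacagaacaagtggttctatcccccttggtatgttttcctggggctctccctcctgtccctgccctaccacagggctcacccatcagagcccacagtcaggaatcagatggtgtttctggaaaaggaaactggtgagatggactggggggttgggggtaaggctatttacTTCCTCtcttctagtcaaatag

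The core stood once before Fcgr1, Fcgr3 and Fcgr4, beginning at -55, -6 and -22 from the start. Fcgr3 has 2 RefSeq starts, and from the one not shown the core began at -15. These letters were not in the windows of Fcgr2b, Fcer1g and Fcgrt. On either strand, 23.3% of 32851 promoters hold it. The letters TTCNNNGAA of an interferon gamma activated site stood at -109 before Fcgr1 (7.02% of promoters), and a match to an interferon response element at -73 before Fcgr4 (2.98%). A match of letters is a description of the sequence only.

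Of 53361 barcodes the authors kept 28429, 8613 and 7786 of them from the Cre- tumors (run 1, then run 2) and 7248 and 4771 from the Cre+ tumors, at a median of 3718 to 4668 UMIs per cell. Cells were given to 16 types by marker genes that leave out the members, which placed 22099 cells (77.8%), and 14 types had at least 20 cells in every tumor. A further 3479 cells carried markers of 2 lineages, Scrublet called 70.2% of them doublets, and they held 22.8% to 26.4% of the UMIs of the surface receptor genes. They entered no type. The Cre- tumor of run 1 stood apart, with 25.4% of cells called doublets against 12.5% to 16.3% in the other tumors, and with 5.89% of cells at under 3-fold between its hashtags against 0.218% to 2.43%. The runs shared 60 cell barcodes. Csf1r, the targeted gene, had 1.7 and 2.32 UMIs per 10000 in C1q macrophages of the Cre- tumors and 1.5 and 1.65 in those of the Cre+ tumors. In the same order it had 2.41 and 2.34 against 1.47 and 1.29 in monocytes. In Arg1 macrophages it had 1.91 and 2.17 against 1.32 and 1.28. Whether 3' tags register the loss of the floxed part is not known here, and the deletion was not tested. Lyve1 had at most 2 UMIs in the C1q macrophages of a tumor. Levels below are UMIs of a gene per 10000 UMIs of all genes, summed over the cells of a type in a tumor. As 3' tags count molecules without regard to gene length, levels are compared between cell types for the same gene, or as UMI ratios within a cell type.

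Each surface receptor for IgG had its own order of cell types. Fcgr1 and Fcgr2b were highest in C1q macrophages and were higher in Arg1 macrophages, monocytes and Cd209a dendritic cells than in neutrophils, Fcgr3 was highest in neutrophils, and Fcgr4 was high in C1q macrophages and neutrophils and low in monocytes. Fcer1g reached every myeloid type and NK cells, and stood at lower levels in T cells. Fcgrt was highest in a part of the dendritic cells.

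**Figure D1:**
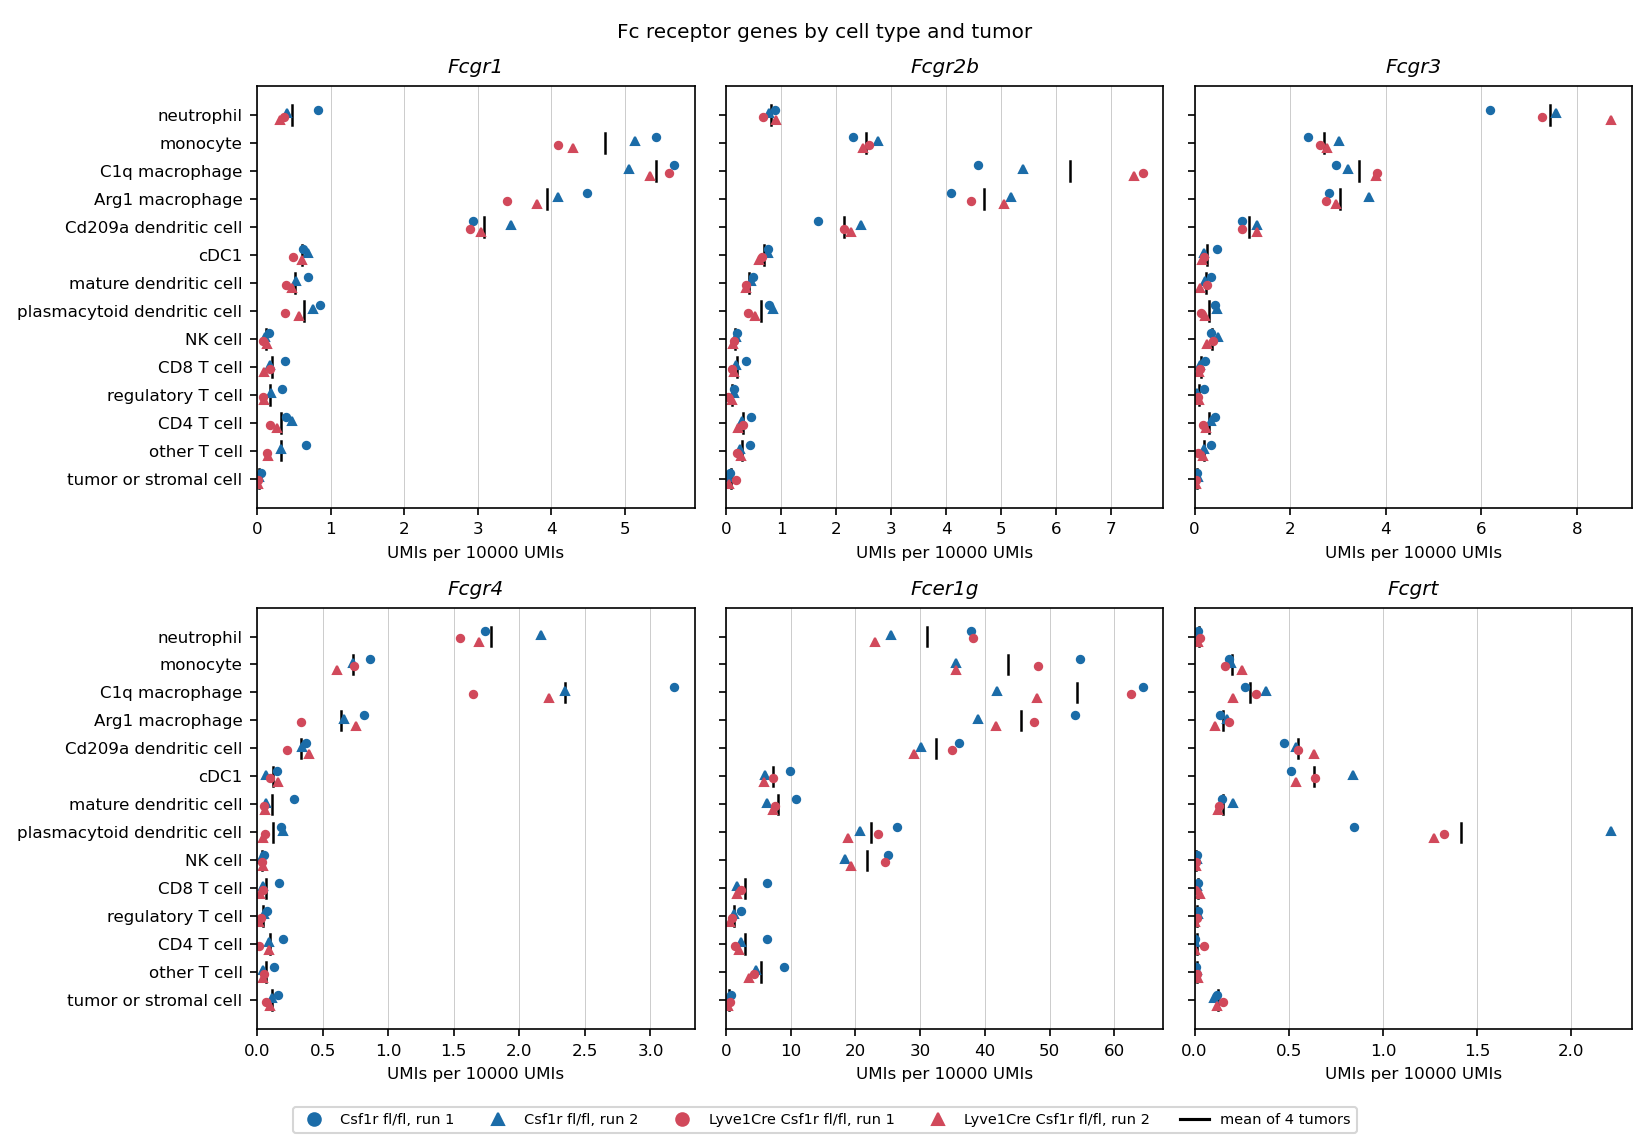
UMIs per 10000 UMIs of each gene (x axis, linear, a scale of its own in each panel) in 14 cell types (y axis), with 1 point per tumor and a bar at the mean of 4 tumors. Fcgr3 in neutrophils lies at 6.18 to 8.71, above every tumor of every other type, while Fcgrt in the plasmacytoid gate spreads from 0.848 to 2.21.

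Fcgr1 encodes the high-affinity receptor, a common marker of macrophages and monocytes. Its level in C1q macrophages was 5.67 and 5.06 in the Cre- tumors (run 1, then run 2) and 5.60 and 5.35 in the Cre+ tumors (5.42 ± 0.27, SD, n = 4). Monocytes stood at 4.74 ± 0.64, Arg1 macrophages at 3.95 ± 0.45 and Cd209a dendritic cells at 3.08 ± 0.26. The ranges of neighbours in this order overlapped among these 4 types. Below them was a gap of 4.85-fold to the plasmacytoid gate (0.64 ± 0.21), with Cd209a dendritic cells higher in 4 of 4 tumors and no overlap of ranges. An exact two-sided sign-flip permutation test over 4 tumors cannot pass the threshold even where all 4 move one way, as here. Neutrophils, at 0.48 ± 0.23, were near cDC1 and mature dendritic cells, at 0.60 and 0.52, and overlapped with both.

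Fcgr3 encodes the low-affinity activating receptor of mouse myeloid and NK cells. Neutrophils held 6.18 and 7.57 in the Cre- tumors and 7.26 and 8.71 in the Cre+ tumors (7.43 ± 1.04). C1q macrophages followed at 3.44 ± 0.43, with every tumor below every neutrophil value, then Arg1 macrophages (3.04 ± 0.41) and monocytes (2.70 ± 0.27), whose ranges overlapped. Cd209a dendritic cells were at 1.15 ± 0.19. NK cells were next in the order at 0.337 and 0.480 in the Cre- tumors and 0.380 and 0.259 in the Cre+ tumors, and overlapped with plasmacytoid cells, cDC1 and CD4 T cells. A UMI of Fcgr3 was seen in 73.0% of neutrophils and 13.4% of NK cells, against 5.12% of CD8 T cells, which should lack the gene, at median depths of 2021, 3704 and 4735 UMIs. Thinned to 1000 UMIs per cell, the shares were 49.7%, 3.62% and 1.33%, without the 154, 7 and 5 cells that were shallower.

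Fcgr4 encodes the mouse receptor that prefers IgG2 subclasses. Per 10000 UMIs it was highest in C1q macrophages at 3.18, 2.35, 1.65 and 2.23 in the Cre- tumors (run 1, then run 2) and the Cre+ tumors of runs 1 and 2 (2.35 ± 0.63). Neutrophils were at 1.74, 2.16, 1.55 and 1.69 in the same order of tumors (1.79 ± 0.26). C1q macrophages were higher in 4 of 4 tumors, by 1.32-fold in the means, but the ranges overlapped. This order is that of UMIs per 10000 and turns with TMM, under which Fcgr4 stood above monocytes by 2.37 on the log2 scale in neutrophils and by 1.59 in C1q macrophages. Monocytes at 0.73 ± 0.10 lay 2.44-fold below neutrophils with no overlap. Arg1 macrophages were at 0.64 ± 0.21, and each of the other types at a mean of 0.333 or below. Fcgr4 had a UMI in 33.2% of tumor or stromal cells at a median depth of 45335 UMIs but in 1.23% of them once thinned to 1000 UMIs, beside 0.525% of CD8 T cells.

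Fcgr2b encodes the only inhibitory receptor of the family. C1q macrophages held 4.58 and 5.41 in the Cre- tumors and 7.57 and 7.42 in the Cre+ tumors (6.24 ± 1.49), and Arg1 macrophages 4.69 ± 0.52. Monocytes at 2.54 ± 0.19 and Cd209a dendritic cells at 2.14 ± 0.33 lay below both. Neutrophils, at 0.82 ± 0.11, were 2.62-fold below the latter on this scale of UMIs per 10000. With TMM scaling, which is used in the tests below and narrows this gap, neutrophils differed from monocytes by -0.56 on the log2 scale and Cd209a dendritic cells by -0.25. NK cells (0.17) and CD8 T cells (0.20) were neighbours near the bottom of the order, with overlapping ranges.

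UMIs of Fcgr1, Fcgr3 and Fcgr4 together per UMI of Fcgr2b give a within-cell-type balance of activating to inhibitory transcripts. In neutrophils this ratio was 9.73 and 12.8 in the Cre- tumors and 13.8 and 11.8 in the Cre+ tumors (12.0 ± 1.7). In monocytes it was 3.23 ± 0.38, in Cd209a dendritic cells 2.16 ± 0.27, in C1q macrophages 1.88 ± 0.51 and in Arg1 macrophages 1.64 ± 0.24. The neutrophil ratio lay above every tumor's value in each of these types. Among C1q macrophages the ratio was 2.58 and 1.96 in the Cre- tumors and 1.46 and 1.53 in the Cre+ tumors, so the genotypes did not overlap there. The ratio was also higher in both Cre- tumors than in both Cre+ tumors in monocytes (3.76 and 3.22 against 2.87 and 3.07). So it was in Arg1 macrophages (1.99 and 1.62 against 1.46 and 1.49), the plasmacytoid gate, other T cells and tumor or stromal cells. In every other type with a ratio for each tumor the genotypes overlapped. These were neutrophils, Cd209a dendritic cells, cDC1, mature dendritic cells, NK cells, CD8 T cells, regulatory T cells and CD4 T cells. All types come from the same tumors, so they do not count as separate observations. UMIs were few in the plasmacytoid gate (18 over 13 in the Cre+ tumor of run 1). They were also few in tumor or stromal cells (42 over 6 in the Cre- tumor of run 2). With 2 tumors against 2, the smallest two-sided p of an exact permutation test is 0.333, and no test of the ratio was run.

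**Figure D2:**
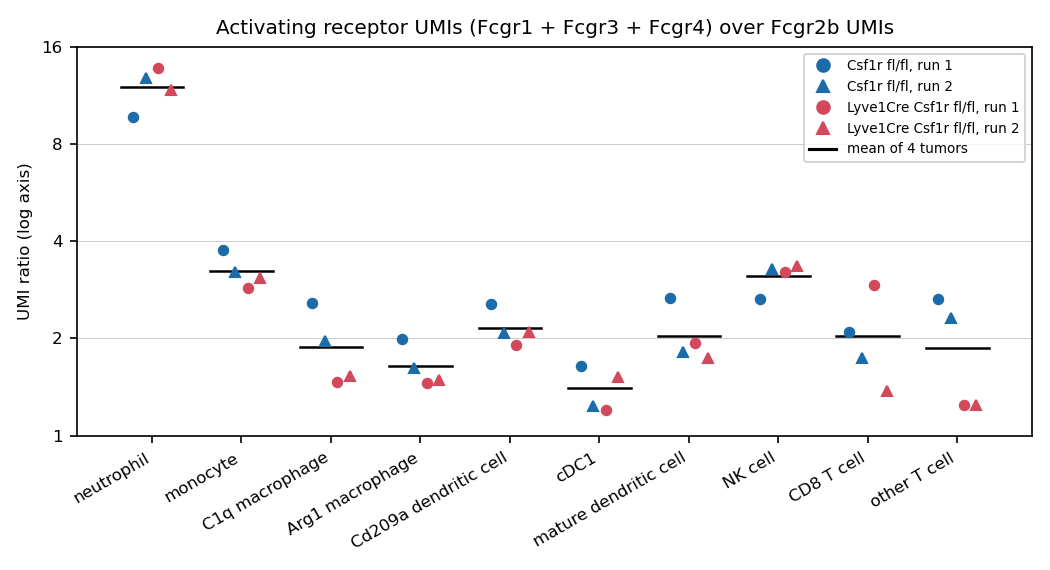
UMIs of Fcgr1, Fcgr3 and Fcgr4 divided by UMIs of Fcgr2b (y axis, log scale) in the cell types with at least 20 UMIs of Fcgr2b in every tumor, 1 point per tumor and a bar at the mean. Neutrophils lie at 9.73 to 13.8 and C1q macrophages at 1.46 to 2.58.

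Most macrophages held transcripts of several receptors in the same cell. Among cells with 3000 to 6000 UMIs, 93.2% of C1q macrophages, 78.2% of Arg1 macrophages, 76.7% of monocytes and 50.7% of Cd209a dendritic cells had UMIs of 2 or more of the 4 surface receptor genes. Among neutrophils with 1500 to 3000 UMIs it was 29.9%, and 71.9% of them had a UMI of Fcgr3. In that group the share with Fcgr3 was 77.1% among cells with a UMI of Fcgr2b and 71.2% among the others. In Arg1 macrophages the same shares were 71.7% and 40.5%. They describe pooled cells and carry no test.

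Fcer1g was by far the most counted member, with 367683 UMIs over all kept cells against 28119 for Fcgr1. Its level was 64.4 and 41.9 in C1q macrophages of the Cre- tumors and 62.5 and 48.1 in those of the Cre+ tumors (54.2 ± 11). The tumors of run 1 were the higher ones in both genotypes, and the same held in monocytes (43.5 ± 9.5) and neutrophils (31.1 ± 8.0). Arg1 macrophages (45.6 ± 6.7), Cd209a dendritic cells (32.5 ± 3.4), the plasmacytoid gate (22.4 ± 3.3) and NK cells (21.8 ± 3.5) filled the upper part of the order. Mature dendritic cells and cDC1 came after a gap of 2.72-fold at 8.03 and 7.24. In all of these types too, the tumor of run 1 was the higher one in both genotypes, so the difference between runs was not particular to a type. CD8 T cells were at 6.36 in the Cre- tumor of run 1 and at 1.68 to 2.27 in the other 3, so 1 tumor sets much of their mean of 3.0. Other T cells were at 9.01 and 4.66 in the Cre- tumors and 4.32 and 3.58 in the Cre+ tumors, with a UMI in 42.5% of cells. Gamma delta T cells, with enough cells in 3 tumors only, were at 5.86 ± 0.46, with a UMI in 62.0%.

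Fcgrt had 2904 UMIs in all, 19.6% of them in Cd209a dendritic cells. The plasmacytoid gate held 0.848 and 2.21 in the Cre- tumors and 1.32 and 1.27 in the Cre+ tumors (1.41 ± 0.57), cDC1 0.63 ± 0.15 and Cd209a dendritic cells 0.55 ± 0.07. C1q macrophages (0.29 ± 0.07) and monocytes (0.20 ± 0.04) overlapped. Neutrophils and NK cells were at 0.021 and 0.0098. The order of Fcgrt was thus unlike that of the surface receptors, and neutrophils, at the top for Fcgr3, were near the bottom.

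The plasmacytoid gate was mixed when its cells were followed into clusters built without the members. Of its 567 cells, 472 fell in the plasmacytoid cluster, with Fcgrt at 0.326 and 0.479 in the Cre- tumors and 0.352 and 0.303 in the Cre+ tumors. Another 87 cells fell in Cd209a dendritic cell clusters, with Fcgrt at 6.07, 5.74, 5.66 and 4.26 in the same order, and 72.4% of them had a UMI of Fcgrt. These 87 cells had Tcf4 at 16.8 against 17.0 in the plasmacytoid cluster, but Siglech at 3.07 against 21.2 and Cox6a2 at 0.779 against 22.1. These genes are markers of the gate, which asked for a summed marker level of at least 15. Cells low in Siglech and Cox6a2 could pass it mainly through Tcf4 or another of its markers, so their Tcf4 level was set in part by the gate. The 87 cells numbered 24, 35, 9 and 19 per tumor. The tumor with 35 of its 107 gated cells among them was the one at 2.21 in the gate. With clusters in place of gates, Fcgrt was highest in Cd209a dendritic cells at 0.949, and plasmacytoid cells were at 0.334.

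**Figure D3:**
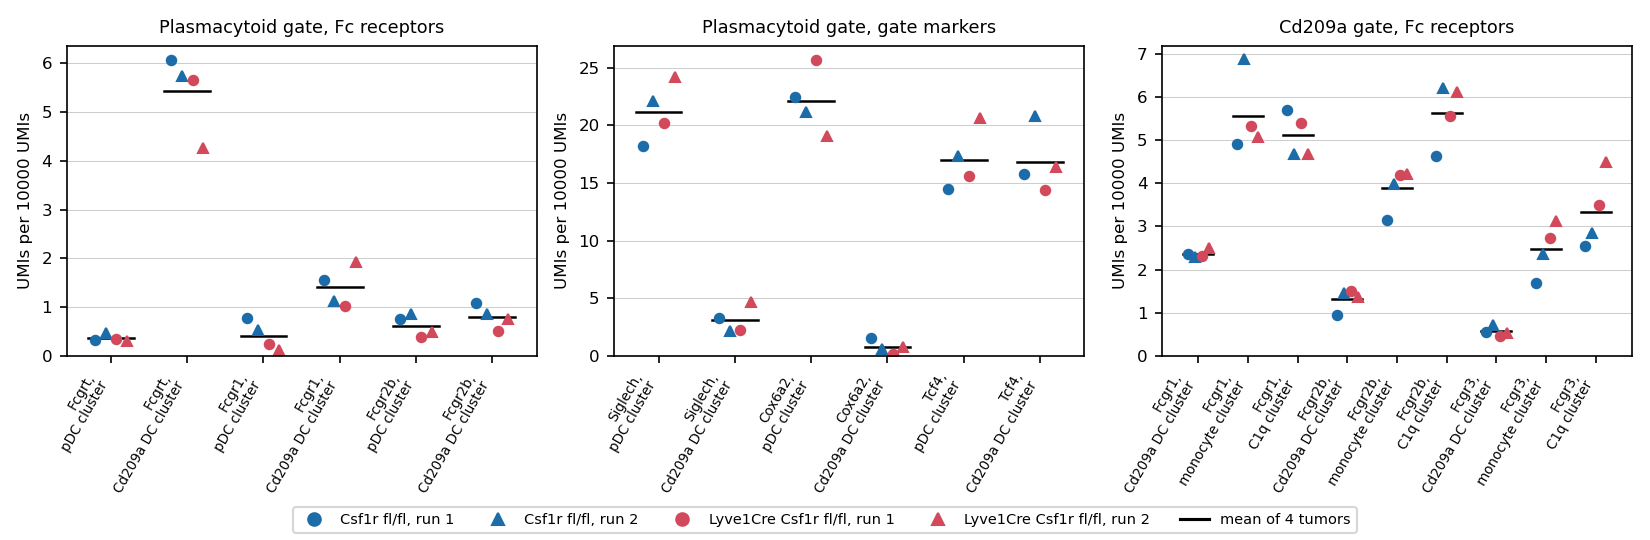
UMIs per 10000 UMIs (y axis) of genes in cells of the plasmacytoid gate (left, middle) and the Cd209a gate (right), split by the cluster they fell in (x axis), with 1 point per tumor and a bar at the mean. In the plasmacytoid gate, the cells of Cd209a dendritic cell clusters have Fcgrt at 4.26 to 6.07 and those of the plasmacytoid cluster at 0.303 to 0.479.

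The Cd209a gate was mixed too. Its 1063 cells in the Cd209a cluster had Fcgr1 at 2.37, Fcgr2b at 1.32, Fcgr3 at 0.572 and Fcgrt at 0.728. The 368 cells in monocyte clusters had 5.55, 3.89, 2.47 and 0.142 of the same genes, with H2-Ab1 at 42.5 against 67.0. Of the 1013 cells of the Arg1 gate, 403 fell in the C1q cluster, where Fcgr2b was at 7.06 and Fcgr4 at 0.731. A further 339 (33.5%) fell in monocyte clusters, with 4.08 and 0.880 of the same genes, and 169 (16.7%) in the Cd209a cluster, with 2.06 and 0.0798. Levels in these gates therefore average over cells that differ in the members, and the splits are descriptions with no test.

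Cell types of the same tumors were compared with edgeR on UMIs summed per tumor, with the tumor as a block, and the members passed the test in 33 of 41 tests over 7 comparisons. Cell types differ in many genes, so each count is given beside the share of all genes that passed. In C1q macrophages against monocytes, 4 of 6 members were higher and none lower, where 33.7% of all genes tested passed in either direction. Fcgr4 was 3.0-fold higher (log2 difference 1.59 ± 0.12, SE, adjusted p = 1.2e-07) and Fcgr2b 2.25-fold higher (1.17 ± 0.12, adjusted p = 2.9e-06). Fcgrt (0.56 ± 0.18) and Fcer1g (0.23 ± 0.08) passed by little, with adjusted p = 0.025 and 0.039, but the Fcer1g call was lost without any 1 of the 4 tumors (0.18 to 0.27), and that of Fcgrt without any tumor but the Cre+ tumor of run 2 (0.40 to 0.61) and without doublets (0.35). Of the 12 alternatives 2 kept the Fcer1g call and 5 that of Fcgrt. Fcgr1 did not pass, at 0.10 (95% interval -0.09 to 0.29), nor did Fcgr3 at 0.25 (0.06 to 0.44), which did pass without the Cre- tumor of run 2 (0.35), without doublets (0.30), with clusters in place of gates (0.29) and by total UMIs (0.34). Among the 24 genes of ITAM and ITIM signalling, 4 were higher and 7 lower in C1q macrophages with TMM, and 8 and 5 by total UMIs. The adaptor genes Dok1 (1.43-fold) and Lat2 (1.34-fold) led the higher ones and the kinase gene Fgr (1.73-fold) and Plcg2 (1.68-fold) the lower ones. Fcrl5, an Fc receptor-like gene, was 33.2-fold higher in C1q macrophages.

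Arg1 macrophages differed from C1q macrophages in 3 of 6 members, all lower, where 16.3% of genes passed. Fcgr4 was 3.56-fold lower (-1.83 ± 0.12, adjusted p = 6.6e-09), Fcgrt 1.87-fold lower (-0.90 ± 0.19) and Fcgr1 1.29-fold lower (-0.37 ± 0.09). Of the 11 alternatives 9 kept the Fcgr1 call and 10 that of Fcgrt. The Fcgr1 call was lost, among others, without the Cre+ tumor of run 1 (-0.27). Fcgr2b at -0.29 (-0.50 to -0.07), which passed without the Cre- tumor of run 2 (-0.40), by total UMIs (-0.37) and with no filter (-0.28), and Fcgr3 at -0.07 (-0.28 to 0.14) did not pass. The C-type lectin Clec4e, which signals through Fcer1g, was 2.72-fold higher in Arg1 macrophages, and Fcrl5 was 27.1-fold lower.

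Neutrophils against monocytes had all 6 members past the threshold, 3 higher and 3 lower, where 75.6% of genes passed. Fcgr3 was 5.85-fold higher (2.55 ± 0.11, adjusted p = 2.3e-13) and Fcgr4 5.18-fold higher (2.37 ± 0.13). Fcgr1 was 4.81-fold lower (-2.27 ± 0.14), Fcgrt 3.90-fold lower (-1.96 ± 0.27) and Fcgr2b 1.47-fold lower (-0.56 ± 0.12). Scaling by total UMIs in place of TMM moves the median of all genes from -0.14 to -1.24. Under it Fcgr3 and Fcgr4 were still higher (1.45 and 1.28), and Fcgr1, Fcgrt and Fcgr2b lower (-3.36, -3.05 and -1.65). Fcer1g was higher with TMM (0.60 ± 0.10) but lower by total UMIs (-0.50 ± 0.10), as its levels of 31.1 and 43.5 per 10000 show. Of 24 signalling genes, 15 were higher in neutrophils and 6 lower with TMM, but 5 higher and 17 lower by total UMIs. Gab2 (6.76-fold with TMM) and the kinase gene Syk (6.20-fold) were higher under both. Of 7 tested genes of adaptors and Fcer1g partners, 7 were higher with TMM and 5 by total UMIs, with 1 lower, and the lectin genes Clec4d (28.1-fold) and Clec4e (16.7-fold) were higher under both. The 3 tested IgG heavy chain genes passed as higher under both, but at trace levels whose SD across the 4 tumors exceeded the mean in neutrophils, as for Ighg2b (0.0959 ± 0.105 UMIs per 10000) and Ighg1 (0.0923 ± 0.110).

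Cd209a dendritic cells against monocytes also had all 6 members past the threshold, 1 higher and 5 lower, where 38.3% of genes passed. Fcgrt was 2.81-fold higher (1.49 ± 0.12, adjusted p = 2.9e-10). Fcgr3 was 2.35-fold lower (-1.23 ± 0.07), Fcgr4 2.21-fold lower (-1.15 ± 0.11) and Fcgr1 1.52-fold lower (-0.61 ± 0.07). Fcer1g (-0.39 ± 0.06) and Fcgr2b (-0.25 ± 0.07) were lower by less and lost their calls without the tumor block. With clusters in place of gates the differences were larger, at 2.92 for Fcgrt, -1.90 for Fcgr3, -2.39 for Fcgr4, -1.12 for Fcgr1 and -0.88 for Fcer1g. Among signalling genes, 5 were higher and 11 lower, with Fyn at 1.91-fold higher and Dok3 at 1.87-fold lower.

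**Figure D4:**
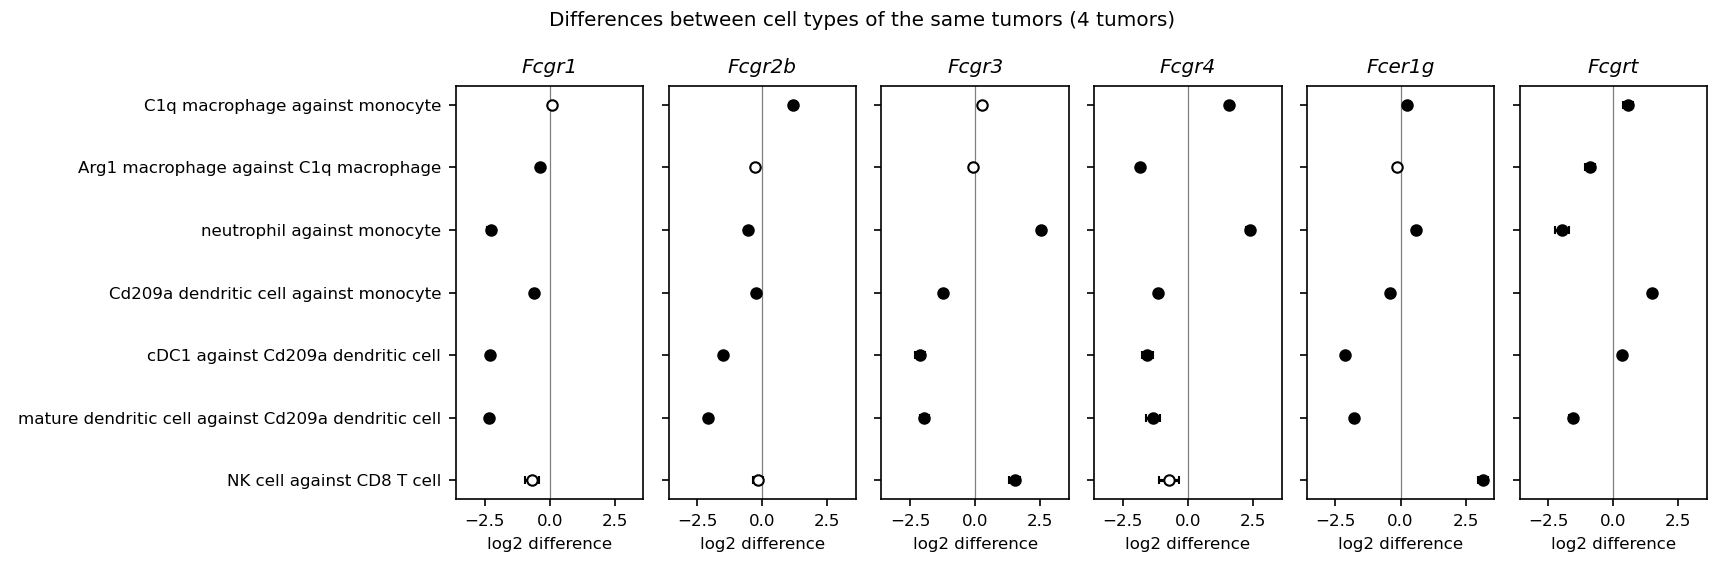
Log2 difference and SE (x axis) of each gene in 7 comparisons of cell types of the same tumors (y axis), from edgeR with TMM, where filled points passed the threshold. Fcgr3 is higher in neutrophils than in monocytes by 2.55 and Fcer1g is higher in NK cells than in CD8 T cells by 3.17.

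The other dendritic cells were poor in surface receptors. In cDC1 against Cd209a dendritic cells 5 members were lower and 1 higher, where 47% of genes passed. Fcgr1 was 4.86-fold lower (-2.28 ± 0.10), Fcgr3 4.35-fold (-2.12 ± 0.20), Fcer1g 4.34-fold (-2.12 ± 0.08), Fcgr4 2.95-fold (-1.56 ± 0.21) and Fcgr2b 2.88-fold (-1.53 ± 0.11). Fcgrt was 1.26-fold higher (0.34 ± 0.13, adjusted p = 0.039), and 7 of 12 alternatives passed, counting either direction. The call was lost, among others, without the Cre- tumor of run 2 (0.14) or the Cre+ tumor of run 1 (0.34). The direction turned with clusters in place of gates (-0.55). Fcgr4 did not pass with clusters (-0.32). The FcRn partner B2m was 1.89-fold lower. Fcrla, another Fc receptor-like gene, was 34.6-fold higher. Of the signalling genes 17 were lower and 1 higher, the phosphatase gene Inpp5d at 1.27-fold.

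Mature dendritic cells against Cd209a dendritic cells had all 6 members lower, where 64.1% of genes passed. Fcgr1 was 4.99-fold lower (-2.32 ± 0.10), Fcgr2b 4.22-fold (-2.08 ± 0.11), Fcgr3 3.87-fold (-1.95 ± 0.17), Fcer1g 3.43-fold (-1.78 ± 0.07) and Fcgrt 2.96-fold (-1.57 ± 0.15). Without cells called doublets the differences were larger, at -3.41 for Fcgr1 and -3.53 for Fcgr3. Fcgr4, at -1.33 ± 0.26, was -2.15 without the Cre- tumor of run 1 and did not pass with clusters (-0.17), where Fcgr3 was at -0.69. B2m was 1.69-fold higher, and 16 of 24 signalling genes were lower, Lat2 by 5.51-fold, while Pik3r5 and Dok1 were 3.15-fold and 2.83-fold higher.

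NK cells against CD8 T cells had 2 of 5 tested members higher, where 28.8% of genes passed. Fcer1g was 8.97-fold higher (3.17 ± 0.20, adjusted p = 7.5e-08) and Fcgr3 2.87-fold higher (1.52 ± 0.22, adjusted p = 0.00015). Without doublets these were 4.07 and 2.70. Fcgr1 (-0.68, 95% interval -1.19 to -0.18), Fcgr4 (-0.72, -1.47 to 0.04) and Fcgr2b (-0.17, -0.56 to 0.23) did not pass, though Fcgr1 did without the Cre+ tumor of run 2 (-1.03), by total UMIs (-0.77) and with no filter (-0.71). With clusters in place of gates all 3 passed as higher in NK cells (Fcgr1 1.71, Fcgr2b 1.52, Fcgr4 1.26). Fcgr1 and Fcgr2b also turned without doublets, and Fcgr2b without the Cre- tumor of run 1 (0.16). Tyrobp, the adaptor gene most alike to Fcer1g in pattern, was 17.3-fold higher in NK cells, and 14 of 23 tested signalling genes were higher, with Syk at 6.54-fold and Plcg2 at 6.36-fold, against 4 lower.

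The lists around the receptors moved by counts beside the members. The median log2 difference of the 24 signalling genes with TMM was 0.11 in C1q macrophages against monocytes, -0.82 in cDC1 and -1.31 in mature dendritic cells against Cd209a dendritic cells, and 0.44 in NK cells against CD8 T cells, where the medians of all genes were 0.03, -0.01, 0.03 and -0.01. Of the adaptors and Fcer1g partners, 1 of 8 was higher and 4 lower in C1q macrophages against monocytes, and 5 of 8 were higher and 0 lower in Arg1 against C1q macrophages. In Cd209a dendritic cells against monocytes 1 of 7 was higher and 4 lower, and 6 of 7 were lower in both cDC1 and mature dendritic cells. Clec4n, the most changed of them in cDC1, was 9.16-fold lower. Of the 11 other immunoglobulin receptor genes only 1 or 2 were tested in a comparison, since the rest were too low. Trim21, a cytosolic Fc receptor gene, was 1.80-fold lower in cDC1 and 1.56-fold lower in mature dendritic cells. Ighg2b was 1.84-fold higher in Cd209a dendritic cells than in monocytes, and apart from that and the neutrophil comparison 0 of the IgG heavy chain genes tested passed with TMM, while by total UMIs 1 of 3 was lower in mature than in Cd209a dendritic cells.

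Across 60 sums of a cell type and tumor in 16 types, log2 levels of the members were set beside those of 3212 genes as a description. The members and gate markers among these genes were left out when the nearest genes were picked. The sums of a tumor share a library and depth. Nearest to Fcgr1 were Ms4a6d (Pearson r = 0.976), Clec4a3 and Clec4a1, and to Fcgr2b Tgfbi (0.961), Clec4a3 and Cd68. Nearest to Fcgr3 were Sdcbp (0.965), the integrin gene Itgam and Pilra, to Fcgr4 Slc11a1 (0.952), Cd300ld and Plin2, to Fcer1g Tyrobp (0.960), Rnf130 and Fgr, and to Fcgrt Ppfia4 (0.937), Fgd2 and Rnase6. Among the members, Fcgr1 and Fcgr2b were closest (0.954), then Fcgr3 and Fcgr4 (0.917), while Fcgrt was at 0.144 with Fcgr3.

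The last comparison asked whether the members differed between genotypes within a cell type. No member passed in 72 tests over 14 types with edgeR, where 16 (22.2%) had an unadjusted p under 0.05, against 2.04% of the tests of all genes, and the lowest adjusted p was 0.999. DESeq2 also called 0, with 11 at an unadjusted p under 0.05. Of all genes, 0% passed in 13 types and 0.0143% (1 gene) in CD4 T cells. The value in the Cre+ tumors was the lower one in 56 of the 72 tests (77.8%), against 50.2% of the tests of all genes. Of the 16 tests 2 or 3 lay in each of the 4 T cell types, 3 in the plasmacytoid gate, and 1 each in C1q macrophages, mature dendritic cells and tumor or stromal cells. The summed level of the C1q macrophage markers in the plasmacytoid gate was 5.42 in the Cre- tumor of run 1, 2.04 in the other Cre- tumor and 0.724 and 0.833 in the Cre+ tumors, and its part in these tests was not tested. No gene of the signalling, adaptor or other receptor lists passed in any type.

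The run held 1 tumor of each genotype, and with the run as a block 6 of the 72 tests passed, where 0.396% of the tests of all genes did. With doublets also left out, an alternative added after seeing the data, 2 of 61 did, where 0.242% of the tests of all genes over the same types passed. In C1q macrophages Fcgr2b was higher in the Cre+ tumors (log2 difference 0.60 ± 0.12, adjusted p = 0.00021), by 0.73 in run 1 and 0.46 in run 2. It was 0.60 ± 0.12 (adjusted p = 0.0089) with the block and no doublets. Fcgr4 was lower there (-0.51 ± 0.15, adjusted p = 0.037), by -0.95 in run 1 and -0.08 in run 2. In run 2 the levels were close, at 2.23 against 2.35, and the call was lost with no doublets (-0.53, adjusted p = 0.15). In the same fit 1.87% of all genes passed in C1q macrophages. The gated C1q macrophages numbered 537, 358, 167 and 109, and their summed level of 7 C1q macrophage markers was 93.3 and 76.0 in the Cre- tumors and 74.5 and 69.2 in the Cre+ tumors. That of 6 monocyte markers was 27.6 and 29.7 against 38.5 and 35.7. Their part in the Fcgr2b and Fcgr4 values was not tested. In monocytes Fcgr1 was lower in the Cre+ tumors (-0.35 ± 0.09, adjusted p = 0.025), at 4.09 and 4.29 against 5.42 and 5.14, where 0.938% of genes passed. With no doublets the call was lost (-0.29, adjusted p = 0.37). C1q macrophage markers in the monocyte gate summed to 3.46 and 2.56 in the Cre- tumors and 2.53 and 2.29 in the Cre+ tumors, and their part was not tested.

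The other 3 calls with the block lay in T cells. Fcer1g was lower in the Cre+ tumors in regulatory T cells (-1.12 ± 0.15, adjusted p = 2.9e-10) and CD4 T cells (-1.22 ± 0.21, adjusted p = 5.5e-06). Fcgr1 was lower in regulatory T cells (-1.70 ± 0.37, adjusted p = 0.0012). In runs 1 and 2, Fcer1g differed by -1.37 and -0.79 in regulatory T cells and by -2.21 and -0.26 in CD4 T cells. Fcgr1 differed by -2.16 and -1.13. The SEs and p-values of this fit rest on variance estimates shared across genes, not on the spread of the 2 runs alone. In regulatory and CD4 T cells 0.831% and 0.614% of genes passed. Fcer1g in CD4 T cells was 6.39 in the Cre- tumor of run 1, against 2.33 in the other Cre- tumor and 1.38 and 1.95 in the Cre+ tumors. The summed level of 7 C1q macrophage markers in CD4 T cells was also highest in that tumor, at 1.09 against 0.438, 0.402 and 0.623, and in regulatory T cells it was 0.794 against 0.472, 0.320 and 0.304. The share of CD4 T cells called doublets was 12.2% in that tumor and 6.94% to 8.45% in the others. With the block and no doublets, Fcer1g and Fcgr1 in regulatory T cells were at -0.55 and -0.28 and neither passed (adjusted p = 0.996 for both), while Fcer1g in CD4 T cells was at -1.61 (adjusted p = 1.1e-05). With no block and without the Cre- tumor of run 1, Fcer1g was at -0.48 in regulatory T cells and -0.37 in CD4 T cells, against -1.13 and -1.39 with all tumors. The part of the macrophage markers in these calls was not tested. Without the Cre- tumor of run 2, which leaves that of run 1 as the lone control, 12 tests passed with no block, where 0.489% of the tests of all genes did. Of the members 1 passed without the Cre+ tumor of run 2, where 0.113% of all did, and 0 without either tumor of run 1.

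**Figure D5:**
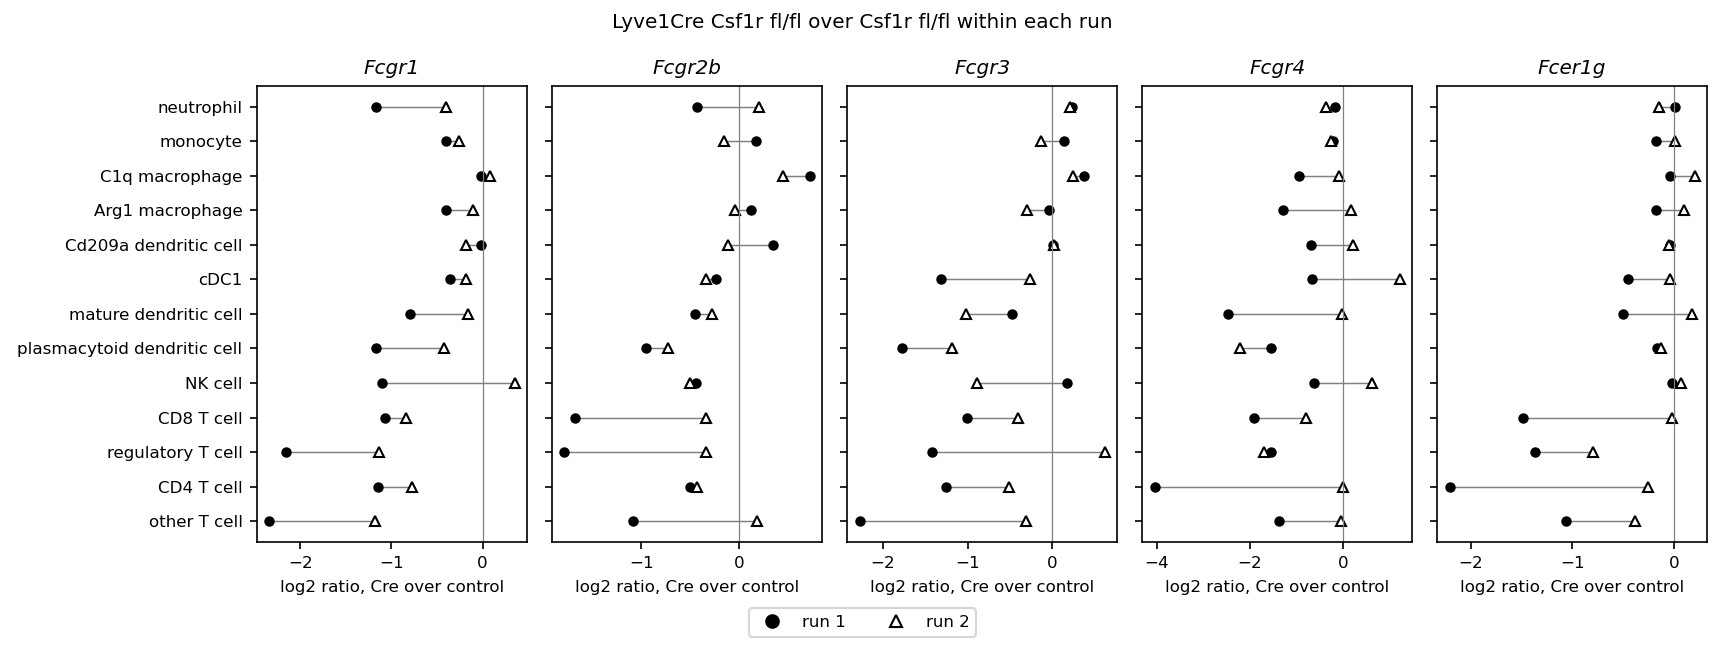
Log2 ratio of UMIs per 10000 in the Cre+ tumor over the Cre- tumor of the same run (x axis, a scale of its own in each panel) for 5 genes in 13 cell types (y axis), with run 1 as filled circles and run 2 as open triangles. Fcgr2b in C1q macrophages is above 0 in both runs, at 0.73 and 0.46, while T cell types lie mostly below 0 and further so in run 1.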

How the data were processed

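Viable CD45+ cells of 4 tumors were profiled with Chromium 3' v2 chemistry in 2 runs, each pooling 1 tumor of each genotype. The authors deposited raw UMI counts per gene and cell made with Cell Ranger 6.0.1 on mm10, raw hashtag counts, and corrected expression scores from Seurat's SCTransform. The deposited scores were used only for the names of the cells the authors kept, which were singlets with under 5% mitochondrial UMIs, less the 4 clusters that the authors removed as particular to 1 tumor. The higher of the hashtags of its run set each cell's tumor, and 11 ties were left out. Cell types were gated by marker genes with at least 2 UMIs, none of them a member. UMIs were summed per tumor and cell type for types with at least 20 cells in every tumor, and tested with edgeR 4.0.16 in R 4.3.3 (quasi-likelihood test, TMM, filterByExpr, Benjamini-Hochberg adjustment over all genes, threshold 0.05). The tumor was a block between cell types. SEs come from the same fits, and intervals cover 95%. The replicate numbers of the genotypes mark the shared Chromium run, and deviations of same-run tumors from their genotype means correlated in every type (r = 0.174 to 0.400 over 14 types), so the fit with the run as a block is given wherever it changed a call. With 2 tumors per genotype the spread of levels is that between these tumors. SEs and p-values of the fits rest in part on variance estimates that edgeR shares across genes. The genotype fit with the run as a block depends on them most, as 4 sums leave it almost no residual degrees of freedom.

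Alternatives were DESeq2 1.42.0, RLE size factors, no filter, each tumor left out, no Scrublet doublets (scanpy 1.11.5), hashtags at least 3-fold apart, clusters built without the members, and, added after seeing the data, total UMIs without TMM and the run as a block with no doublets. Doublets stayed in the main sums. Shares of cells with a UMI were also taken after thinning each cell to 1000 UMIs, and intervals of shares (Wilson) cover counting error only. The genes named are the 6 members, the 3 genes most alike in pattern to each, and up to 2 genes each way of the lists of ITAM and ITIM signalling, adaptors and Fcer1g partners, other immunoglobulin receptors, the FcRn partner and IgG heavy chains. Members and gate markers could not be picked as genes alike in pattern. The members and lists were chosen with earlier results of these data known.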

Additional observations from a re-analysis of the deposited data

Results flagged for a closer look

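Of 72 sets of 4 tumors, 4 had a single tumor far from the others (by Dixon's 95% critical value), and chance gives about 1 in 20. All 4 lay in the Cre- tumor of run 1. Fcgr3 in cDC1 was 0.474 UMIs per 10000 there against 0.159 to 0.191 in the other 3 tumors. Fcgr4 was 0.282 in mature dendritic cells against 0.0511 to 0.0633, and 0.165 in CD8 T cells against 0.0245 to 0.0439. Fcer1g in CD8 T cells was 6.36 against 1.68 to 2.27. The summed level of 7 C1q macrophage markers in CD8 T cells was 0.810 in that tumor against 0.306 to 0.486, in cDC1 1.82 against 0.449 to 0.787, and in mature dendritic cells 4.27 against 1.34 to 1.57. Doublets made up 18.7% of cDC1 in that tumor against 6.12% to 10.4%, and 12.7% of mature dendritic cells against 6.21% to 9.83%. Their part in these values was not tested.

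Directions were compared among cell types with at least 50 UMIs of a gene over the 4 tumors. For 3 genes the Cre+ tumors were higher in both runs in some cell types and lower in both runs in others. With 2 runs and many cell types, chance alone can give a gene some types each way. The share of all genes with such a pattern was not counted, and the difference between cell types was not tested. The pattern is therefore a description and was not shown to be particular to these genes. Fcgr2b was higher in both runs in 2 types, C1q macrophages and tumor or stromal cells, and lower in both in 7, which were cDC1, mature dendritic cells, plasmacytoid cells, NK cells, CD8 T cells, regulatory T cells and CD4 T cells. Fcgr3 was higher in 3 types (neutrophils, C1q macrophages and Cd209a dendritic cells) and lower in 8, though in Cd209a dendritic cells the values hardly differed, at 0.988 against 0.984 in run 1 and 1.31 against 1.30 in run 2. Fcgrt was higher in 2 (Cd209a dendritic cells and tumor or stromal cells) and lower in 1 (mature dendritic cells).

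B cells were nearly absent from the kept cells, with 7, 3, 7 and 56 per tumor. Among barcodes the authors did not keep, with at least 500 UMIs and under 5% mitochondrial UMIs and hashtags at least 3-fold apart, 2612 B cells stood in the Cre+ tumor of run 2. Fcgr2b had a UMI in 15.8% of them (95% Wilson interval 14.4% to 17.2%) at a median of 1904.5 UMIs. In the 721 CD8 T cells of the same kind and tumor it was 5.27% (3.86% to 7.15%) at a median of 2969 UMIs. Fcer1g had a UMI in 14.8% of the same B cells. In shares of cells, the other tumors (Cre- of runs 1 and 2, Cre+ of run 1) did not repeat the order. Fcgr2b had a UMI in 6.59%, 23.9% and 11.1% of their 182, 88 and 90 B cells. In their 23, 51 and 107 CD8 T cells it was 26.1%, 25.5% and 21.5%. Median depths were 1404.5, 2727.5 and 1479 UMIs in these B cells and 3952, 7577 and 5604 in these CD8 T cells. Per 10000 UMIs, Fcgr2b was at 0.480, 1.04 and 1.04 in these B cells and at 1.24, 0.617 and 0.738 in these CD8 T cells. In the Cre+ tumor of run 2 it was 0.766 against 0.264. On that scale only the Cre- tumor of run 1 had B cells below CD8 T cells.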

How the results depend on the processing

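Of the tests between cell types 33 passed, against 27 with no replicate block, 29 with DESeq2, 31 with hashtags at least 3-fold apart and 29 to 33 with 1 tumor left out. Clusters in place of gates gave 31 of 35, with no value for Arg1 macrophages and CD4 T cells, which had no cluster. The genotype calls of members went from 0 to 6 with the replicate block, 2 with the replicate block without Scrublet doublets (added after seeing the data) and 8 of 84 with no filter on low counts, where 0.156% of the tests of all genes passed, and from 0 to 12 with 1 tumor left out, where the lone sample of a genotype is assumed to vary like the others. The replicate block changed no other call of a member between genotypes. Directions turned for Fcer1g in neutrophils against monocytes by total UMIs (-0.50), for Fcgrt in cDC1 against Cd209a dendritic cells with clusters (-0.55), and for Fcgr3 in Arg1 against C1q macrophages without the Cre+ tumor of run 1 (0.047, with -0.20 the lowest value with 1 tumor left out). In NK against CD8 T cells, clusters turned Fcgr2b (1.52), Fcgr4 (1.26) and Fcgr1 (1.71), leaving out doublets turned Fcgr2b (0.60) and Fcgr1 (0.0044), and leaving out the Cre- tumor of run 1 turned Fcgr2b (0.16, from a lowest value of -0.31 with 1 tumor left out). Apart from total UMIs, the cause was not tested. Genes that passed numbered 3069 in C1q macrophages against monocytes but 2034 with no replicate block, 1921 with DESeq2 and 2038 without the Cre- tumor of run 2. In Arg1 against C1q macrophages they numbered 1315, and 562, 584 and, without the Cre- tumor of run 1, 675. In Cd209a dendritic cells against monocytes they were 3481, 1841 with no replicate block and 2008 with DESeq2. DESeq2 also gave 2686 in place of 4068 in cDC1 and 1625 in place of 2754 in NK cells. Between genotypes up to 160 genes passed in a type with the replicate block, 109 with no filter and 203 with 1 tumor left out. Members at low levels, Fcgrt and Fcgr4 in lymphocytes above all, are limited by depth.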
